A study of Mus musculus with 12 samples.

Results

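The 10 integrin subunits described here were Itgax, Itgam, Itgal and Itgb2 of the leukocyte integrins, and Itgb5, Itgb1, Itgav, Itgb3, Itga4 and Itga6 of the families that bind matrix and cell surface ligands. They were taken by name from a table of 55573 mouse genes whose Ensembl identifiers were matched to symbols, and all 10 were among the 15521 genes that passed the filter on low counts. The measurements are RNA-seq counts for the right hippocampus, taken whole, of 12 C57BL/6J mice aged 4.5 months. Of these, 4 female and 4 male mice carried APPSwe/Ps1dE9 (APP/PS1), and 2 female and 2 male mice were wild type (WT). In this model the prion gene's promoter element, not one of microglia, drives 2 transgenes: APP as a mouse and human hybrid carrying mutations, and human PS1 from which exon 9 has been deleted. The labels name no pooling of animals, the p-values measure the spread between these libraries, and the 4 WT libraries limit every comparison. Total counts per library ranged from 36714316 to 50643565.

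Integrins are heterodimers of 1 alpha and 1 beta chain that hold cells to matrix and to other cells and signal in both directions across the membrane. The beta2 chain, Itgb2 (CD18), pairs with the alpha chains Itgal (CD11a, giving LFA-1), Itgam (CD11b, giving complement receptor 3), Itgax (CD11c, giving complement receptor 4) and Itgad (CD11d), and these pairs are restricted to leukocytes, which in brain tissue include microglia. CD11b is a standard surface marker of microglia, while CD11c marks dendritic cells and, in brains with amyloid plaques, a subset of microglia. Itgav pairs with Itgb3, Itgb5 or Itgb1 to bind vitronectin and other ligands with an RGD motif, Itga4 pairs with Itgb1 to bind VCAM-1 and fibronectin, and Itga6 pairs with Itgb1 or Itgb4 to bind laminin.

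The genes of 3 of the alpha chains lie on chromosome 7 of GRCm38, on the plus strand. In the GENCODE M21 annotation, Itgal (ENSMUSG00000030830) spans chr7:127296260-127335138, Itgam (ENSMUSG00000030786) spans chr7:128062640-128118491 and Itgax (ENSMUSG00000030789) spans chr7:128129547-128150657. Itgam ends 11055 bases before Itgax starts, and Itgad starts 3718 bases after Itgax ends. Itgb2 (ENSMUSG00000000290) lies elsewhere, at chr10:77530252-77565708. RefSeq promoter windows of GRCm38.p6, from 250 bases before to 50 bases after the start site, were at hand for 6 of the 10 genes, and those of the neighbours Itgax (chr7:128129300-128129599, plus strand) and Itgam (chr7:128062390-128062689, plus strand) are shown because these genes responded by such different amounts. Capitals mark matches on either strand to GAGGAA, the core recognised by the myeloid factor PU.1, and to TGANTCA, the AP-1 motif; the motifs do not overlap in these windows.
Itgax: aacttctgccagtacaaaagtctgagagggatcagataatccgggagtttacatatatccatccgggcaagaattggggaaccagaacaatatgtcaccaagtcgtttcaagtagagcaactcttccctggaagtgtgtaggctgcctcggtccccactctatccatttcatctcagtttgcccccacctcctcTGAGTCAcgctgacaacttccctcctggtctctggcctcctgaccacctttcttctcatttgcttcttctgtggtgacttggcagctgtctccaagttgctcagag
Itgam: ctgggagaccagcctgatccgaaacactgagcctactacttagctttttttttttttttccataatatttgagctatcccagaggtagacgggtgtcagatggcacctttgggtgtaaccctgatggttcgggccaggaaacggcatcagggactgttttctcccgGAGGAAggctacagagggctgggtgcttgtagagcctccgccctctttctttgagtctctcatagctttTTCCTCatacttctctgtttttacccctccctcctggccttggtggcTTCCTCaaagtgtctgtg

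The Itgam window held 3 matches to GAGGAA, beginning at -84, -15 and 32 from the start site, and none to TGANTCA. The Itgax window held 0 matches to GAGGAA and 1 to TGANTCA, beginning at -56. Of 32851 promoter windows of this length, 28.3% held GAGGAA and 7.81% held TGANTCA. Of the other 4 windows, Itgav held 2 matches to GAGGAA, Itgb1 held 1, and Itgb5 and Itga4 held none. GGGCGG, the GC box bound by Sp1, occurred 3 times in the Itgb5 window, once each in those of Itgam, Itgb1, Itgav and Itga4, and not in that of Itgax, against 35.7% of all windows with a match. CACGTG, the E-box, was in none of the 6 windows and in 7.15% of all. Whether any of these motifs bears on the change of its gene in APP/PS1 was not tested.

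Itgax, Itgb2, Itgam and Itga6 were higher in APP/PS1 than in WT hippocampus, and no member was lower. The rise was 16.4-fold between group means for Itgax, 2.14-fold for Itgb2, 1.40-fold for Itgam and 1.19-fold for Itga6. These 4 calls were made with the sexes averaged in edgeR's quasi-likelihood test with Benjamini-Hochberg adjustment over 15521 genes, where a gene was called at an adjusted p (false discovery rate) under 0.1. In that comparison 1.75% of all tested genes were called higher and 0.161% lower in APP/PS1. The median log2 fold change of the 10 members was 0.36, against 0.011 over all genes tested. In bulk tissue, a change in the number of cells of a type and a change in RNA per cell cannot be told apart.

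**Figure D1:**
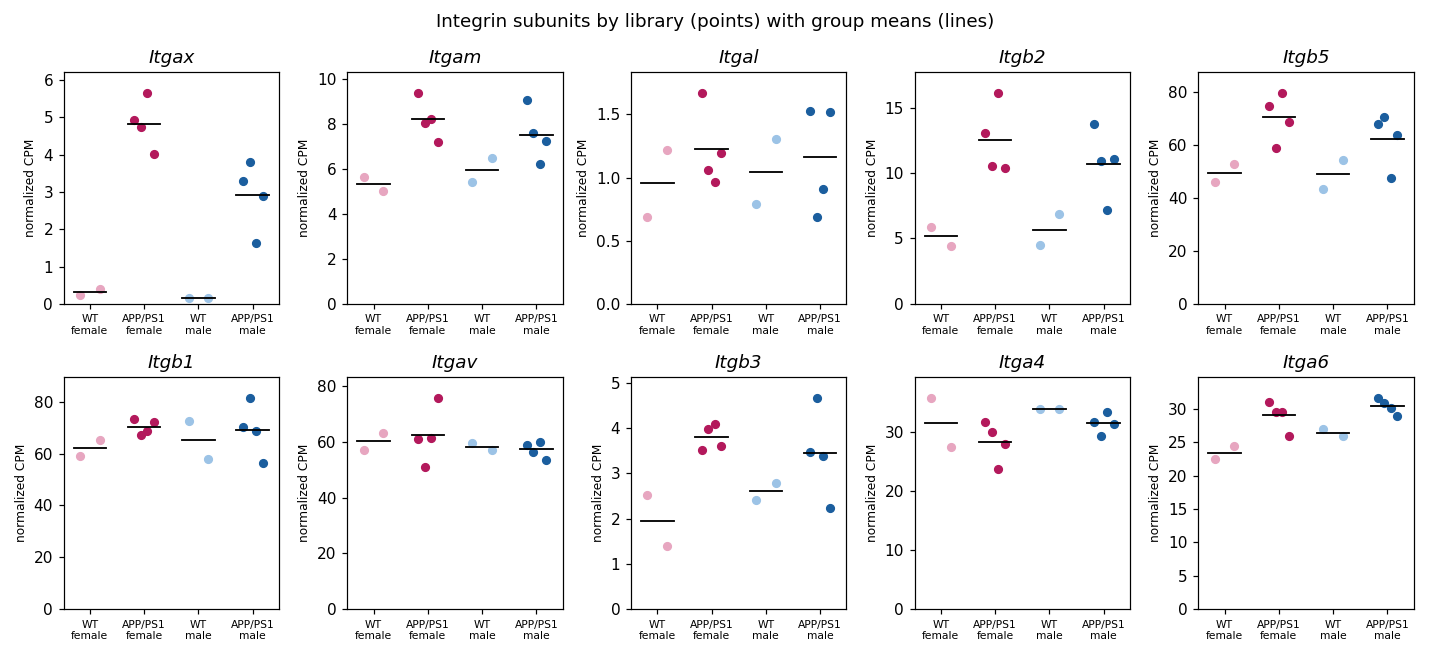
Normalized CPM (y axis from 0) of the 10 integrin subunits in each of the 12 libraries (points), grouped on the x axis by genotype and sex, with group means as lines. Every APP/PS1 library lies above every WT library for Itgax and Itgb2, as for 1.37% of the genes tested, and the groups overlap for the other 8 subunits.

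Itgax changed most. Its normalized CPM (each library's counts scaled to a common total with upper-quartile factors) was 4.93, 4.73, 5.65 and 4.005 in the 4 APP/PS1 females and 3.29, 3.80, 1.64 and 2.89 in the 4 APP/PS1 males. It was 0.239 and 0.391 in the 2 WT females and 0.158 and 0.158 in the 2 WT males. All 8 APP/PS1 libraries lay above all 4 WT libraries, as they did for 1.37% of the genes tested, and the lowest of them was APP/PS1 male 3. The WT values rested on 6 to 18 counts per library and the APP/PS1 values on 72 to 246. Since no WT library reached 1 CPM, Itgax passed the filter through its APP/PS1 libraries alone. The fitted log2 fold change was 4.07 (SE 0.27, n = 8 against 4), with an adjusted p of 3.8e-06 in edgeR's quasi-likelihood test. It kept that call in each of 21 other ways of fitting, where the log2 fold change ranged from 3.99 to 4.20.

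Itgb2, the common partner chain, rose by much less. It stood at 13.1, 10.5, 16.1 and 10.4 normalized CPM in APP/PS1 females, at 13.7, 10.9, 7.19 and 11.04 in APP/PS1 males, at 5.89 and 4.45 in WT females and at 4.47 and 6.89 in WT males. The groups did not overlap, as was so in the upward direction for 1.37% of the genes tested, although APP/PS1 male 3 came close to the second WT male. The log2 fold change was 1.11 (SE 0.22, edgeR adjusted p = 0.0522). With replicate number added to the model as a block, Itgb2 was not called (log2 fold change 1.19, edgeR adjusted p = 0.320). The call was lost in edgeR on leaving out APP/PS1 female 1 (adjusted p = 0.116), APP/PS1 male 2 (0.119), WT female 1 (0.119), WT female 2 (0.199) or WT male 1 (0.139), and without the filter on low counts (0.217), while the log2 fold change stayed between 0.96 and 1.27 over all 21 alternatives.

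Itgam, the alpha chain that marks microglia, changed less than its partner. Its normalized CPM was 9.36, 8.01, 8.21 and 7.18 in APP/PS1 females, 9.04, 7.58, 6.22 and 7.21 in APP/PS1 males, 5.65 and 4.996 in WT females and 5.39 and 6.47 in WT males. Among the APP/PS1 libraries, APP/PS1 male 3 alone lay below the highest WT library, WT male 2. The log2 fold change was 0.49 (SE 0.12, edgeR adjusted p = 0.0741). Its edgeR call was lost on leaving out any of APP/PS1 female 1 (adjusted p = 0.140), female 2 (0.126), female 3 (0.129), APP/PS1 male 2 (0.165), WT female 1 (0.115), WT female 2 (0.277), WT male 1 (0.169) or WT male 2 (0.110), and without RUV factors (0.109). Of its 5024 exonic bases, 3450 are also annotated to Gm49368 on the same strand, so the count of Itgam is uncertain.

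Itgal, the alpha chain of LFA-1 on lymphocytes and other leukocytes, was sparse, with 26 to 66 counts per library. It measured 1.67, 1.06, 0.965 and 1.196 normalized CPM in APP/PS1 females, 1.53, 0.685, 0.911 and 1.52 in APP/PS1 males, 0.689 and 1.22 in WT females and 0.788 and 1.31 in WT males. The groups overlapped throughout. Its log2 fold change of 0.31 had a 95% interval from -0.28 to 0.89 (edgeR adjusted p = 0.795), which includes the value for Itgam.

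**Figure D2:**
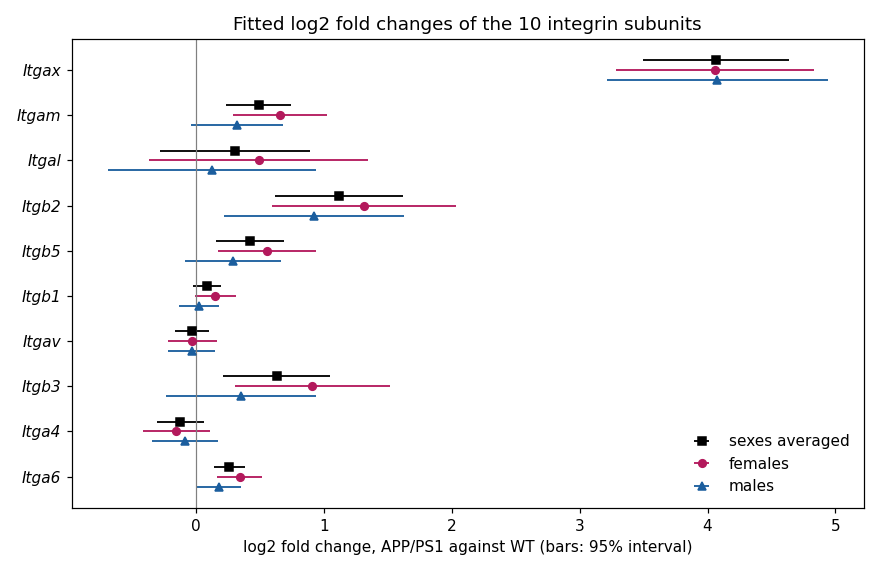
Fitted log2 fold changes of APP/PS1 against WT (x axis) for the 10 subunits (y axis), with 95% intervals as bars, for the sexes averaged (squares), females (circles) and males (triangles). Itgax stands near 4 in both sexes, and the male estimate is the lower one for Itgb2, Itgam, Itgal, Itgb5, Itgb1, Itgb3 and Itga6, with intervals that overlap those of the females.

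Among the subunits not restricted to leukocytes, Itga6, a laminin receptor chain of endothelium and other cells, was called. Its normalized CPM was 31.1, 29.6, 29.6 and 26.0 in APP/PS1 females, 31.6, 30.8, 30.2 and 29.0 in APP/PS1 males, 22.5 and 24.4 in WT females and 27.0 and 25.9 in WT males. The change was small and the spread smaller, and only APP/PS1 female 4 lay below the highest WT library. The log2 fold change was 0.26 (SE 0.056, edgeR adjusted p = 0.0391). The call was lost in edgeR without APP/PS1 female 2 (adjusted p = 0.104), WT female 1 (0.179), WT female 2 (0.110) or WT male 2 (0.158). None of 12 endothelial markers was called by edgeR in either direction (1 higher and 1 lower at an unadjusted p under 0.05), and their summed level was 198 to 282 normalized CPM in APP/PS1 and 189 to 288 in WT.

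Itgb5 and Itgb3, the partners of Itgav in the vitronectin receptors, were not called. Itgb5, which microglia express, was at 74.7, 58.7, 79.7 and 68.7 normalized CPM in APP/PS1 females, 68.1, 70.6, 47.4 and 63.7 in APP/PS1 males, 46.0 and 52.8 in WT females and 43.6 and 54.4 in WT males. All APP/PS1 libraries but male 3 were above the WT libraries. Its log2 fold change was 0.42 (SE 0.12, edgeR adjusted p = 0.199), and it was called in edgeR only with APP/PS1 male 3 left out (0.0296), by the likelihood ratio test (0.0222) or with 1 RUV factor (0.0874), and in DESeq2 (0.0024).

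Itgb3, best known on platelets, was at 3.52, 3.99, 4.09 and 3.62 normalized CPM in APP/PS1 females, 3.48, 4.67, 3.39 and 2.23 in APP/PS1 males, 2.52 and 1.39 in WT females and 2.42 and 2.79 in WT males. APP/PS1 male 4 lay below 3 of the 4 WT libraries and the other 7 above all of them. The log2 fold change was 0.63 (SE 0.20, edgeR adjusted p = 0.222), and Itgb3 was called in edgeR without APP/PS1 male 4 (0.0659), without WT female 1 (0.0680) or by the likelihood ratio test (0.0842).

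Itgav, Itgb1 and Itga4 differed least. Itgav was at 61.1, 51.1, 61.5 and 75.7 normalized CPM in APP/PS1 females and 59.1, 56.6, 60.0 and 53.7 in APP/PS1 males, against 57.1 and 63.3 in WT females and 59.8 and 57.0 in WT males. The WT libraries fell within the range of the APP/PS1 libraries, and the log2 fold change was -0.033 (95% interval -0.16 to 0.098, edgeR adjusted p = 0.915), with a sign that changed between ways of fitting.

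Itgb1, the beta chain with the most alpha partners, was at 73.4, 67.0, 68.9 and 72.1 normalized CPM in APP/PS1 females and 70.1, 81.4, 68.7 and 56.5 in APP/PS1 males, against 59.3 and 65.4 in WT females and 72.4 and 58.1 in WT males. Its 95% interval ran from -0.026 to 0.20 on the log2 scale (edgeR adjusted p = 0.647). Itga4, its partner in VLA-4, was at 31.6, 29.9, 23.6 and 28.0 normalized CPM in APP/PS1 females and 31.6, 29.4, 33.4 and 31.3 in APP/PS1 males, against 35.7 and 27.5 in WT females and 33.9 and 33.9 in WT males. The groups overlapped for both genes, and the 95% interval of Itga4 ran from -0.31 to 0.060 (edgeR adjusted p = 0.698). An increase above 0.20 for Itgb1 or above 0.098 for Itgav lay outside these intervals. Antisense genes share 634 exonic bases with Itgav and 1124 with Itga4, and whether counting used the strand is not given in the sources used here.

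Within each sex, Itgax was the only member called by the quasi-likelihood test. Its log2 fold change was 4.06 in females (SE 0.36, edgeR adjusted p = 1.8e-04) and 4.07 in males (SE 0.40, edgeR adjusted p = 6.1e-04). In females 0.78% of the genes tested were called higher and 0.0387% lower, and in males 0.161% were called higher and 0% lower. For Itgb2 the female and male values were 1.31 (SE 0.32) and 0.92 (SE 0.31), for Itgam 0.65 (SE 0.17) and 0.32 (SE 0.17), and for Itga6 0.34 (SE 0.081) and 0.18 (SE 0.079), with no quasi-likelihood adjusted p under 0.1 in that fit. In females the calls depended on the test: the likelihood ratio test of edgeR called Itgb2 (adjusted p = 0.0057), Itga6 (0.0369), Itgam (0.0409) and Itgb5 (0.0778) as well, and DESeq2 called the same 4 (0.00011, 0.0445, 0.0501 and 0.0147). Itgb2 was also called in females by edgeR with no RUV factors (adjusted p = 0.0975), with 1 (0.0973) or with the sex fitted alone (0.0501), and in males by DESeq2 (0.0411). Leaving out 1 animal added female calls in edgeR for Itgam, Itgb2 and Itga6 without APP/PS1 male 1 (adjusted p = 0.0583, 0.0822 and 0.0861), for Itgb2 without male 3 (0.0740), and for Itga6 without female 4 (0.0601) or male 4 (0.0918) of that genotype. The difference between the sexes in the genotype effect was tested as an interaction, and 0 of the 10 members were called, with 0% of all genes called in edgeR. At an unadjusted p under 0.05 there were 0 members and 587 of all genes, and the likelihood ratio test and DESeq2 also called 0 members. For Itgax the 95% interval of that difference ran from -1.33 to 1.29 on the log2 scale, so that a sizeable difference was not detectable with 2 WT animals of each sex.

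Between the sexes of the APP/PS1 mice, Itgax was at 4.83 ± 0.68 normalized CPM in females and 2.91 ± 0.92 in males (SD, n = 4 each). The lowest female (4.005) lay above the highest male (3.80), and 0.844% of the genes tested had all 4 APP/PS1 females above all 4 APP/PS1 males. The log2 difference of females over males was 0.76 (SE 0.21, unadjusted p = 0.0026 in the edgeR fit), which did not pass adjustment over all genes (adjusted p = 0.738). Of all genes, 0.0902% were called in this comparison, and none of the 10 members was. In WT mice the females were also the higher, at 0.239 and 0.391 against 0.158 and 0.158 normalized CPM, on 9, 18, 6 and 8 counts. No other member had an unadjusted p under 0.05 between APP/PS1 females and males.

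Levels of different subunits were ranked only as normalized CPM per kilobase of exon. In WT, the order of the mean levels was Itgb1 (15.6), Itgb5 (13.8), Itgav (5.52), Itga6 (2.76), Itga4 (2.34), Itgb2 (1.78), Itgam (1.12), Itgb3 (0.386), Itgal (0.152) and Itgax (0.0492). The ranges of the WT libraries overlapped for Itgb1 and Itgb5, for Itga6 and Itga4 and for Itga4 and Itgb2, and were apart for the other neighbours in this order. In APP/PS1, Itgb5 (18.7 ± 2.8) and Itgb1 (17.1 ± 1.7) overlapped, Itgb2 had rank 4 at 3.80 ± 0.87, and Itgax had rank 8 at 0.806 ± 0.265 (SD, n = 8). Itgax thus lay above Itgb3 (0.614 ± 0.119) and Itgal (0.181 ± 0.053) in the mean, with ranges that overlapped that of Itgb3. The place of Itgam in both orders is uncertain, since 3450 of its 5024 exonic bases are also annotated to Gm49368.

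**Figure D3:**
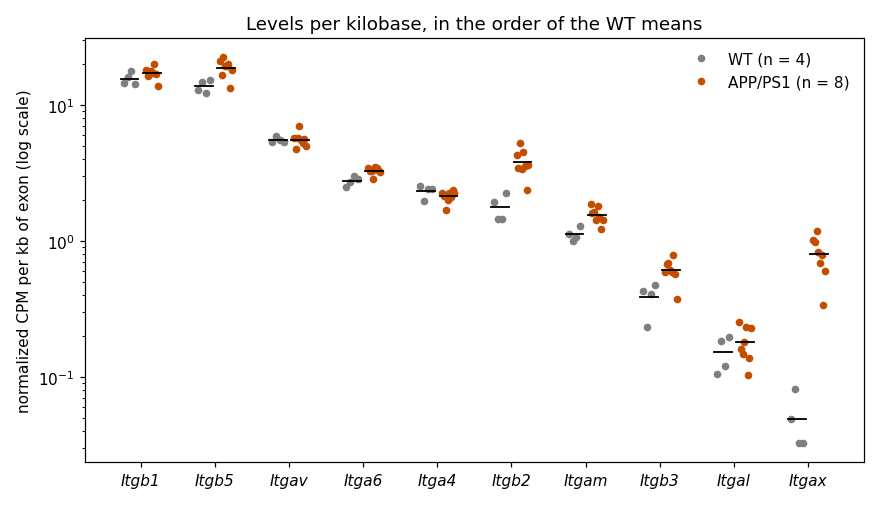
Levels of the 10 subunits as normalized CPM per kilobase of exon (y axis, log scale) in the 4 WT and 8 APP/PS1 libraries (points, with means as lines), ordered on the x axis by WT mean. Itgax moves from 0.0492 in WT to 0.806 in APP/PS1, while Itgb1, Itgav and Itga4 stay near their WT levels.

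The makeup of the alpha chains that pair with Itgb2 therefore differed between genotypes. Taking the levels per kilobase of Itgal, Itgam, Itgax and Itgad as the whole, Itgax made up 3.36% ± 1.67 in WT (SD, n = 4; range 1.85% to 5.64%) and 29.8% ± 6.1 in APP/PS1 (n = 8; range 19.3% to 38.6%). Itgam was the most abundant of the 4 in both, at 75.0% ± 5.4 in WT and 59.8% ± 5.8 in APP/PS1. Itgal made up 10.1% ± 2.4 and 6.94% ± 1.93, and Itgad 11.5% ± 2.7 and 3.50% ± 2.28. Itgad rested on few counts in both genotypes, and Itgax in WT on 6 to 18 per library. Because the shares are parts of 1 whole, the rise of Itgax alone lowers the others. The mean levels per kilobase of Itgam (1.12 in WT and 1.56 in APP/PS1) and Itgal (0.152 and 0.181) were not lower in APP/PS1. These are shares of transcript, not of protein on the cell surface. All 4 shares carry the uncertainty of the Itgam count, since 3450 of its 5024 exonic bases are also annotated to Gm49368 on the same strand. Itgax and Itgad transcripts also share sequence, and how such reads were counted is not given in the sources used here.

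The chains were also compared within each library, where scaling between libraries cancels. These ratios were not corrected for exon length, so they do not show which of 2 chains was the more abundant. On a log2 scale with 0.5 added to each count, the ratio of Itgax to Itgb2 was -1.63 ± 0.36 in APP/PS1 (n = 8) and -4.52 ± 0.78 in WT (n = 4), a difference of 2.89 (p = 0.0044, two-sided exact permutation test within sex). The ratio of Itgam to Itgb2 moved the other way, from 0.071 ± 0.174 in WT to -0.54 ± 0.22 in APP/PS1, a difference of -0.61 (exact permutation p = 0.0044), with every APP/PS1 library below every WT library, and the exact permutation p was 0.050 (difference -0.57) without the 3 libraries rich in choroid plexus transcripts. The smallest p these permutations can give is 0.0044, and 13 ratios were computed. The WT side of the Itgax ratio rested on 6 to 18 counts per library. Itgb2 itself rose (fitted log2 fold change 1.11), so a gene that did not change comes out lower against it. The p-values of Itgam above and Itgal below therefore speak only to a smaller rise than that of Itgb2, not to a fall of either gene. The ratio of Itgal to Itgb2 fell by 0.84 (exact permutation p = 0.013), with overlap between groups, and its p rose to 0.093 without WT female 2 to 0.080 without either WT male and to 0.13 (difference -0.48) without those 3 libraries.

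**Figure D4:**
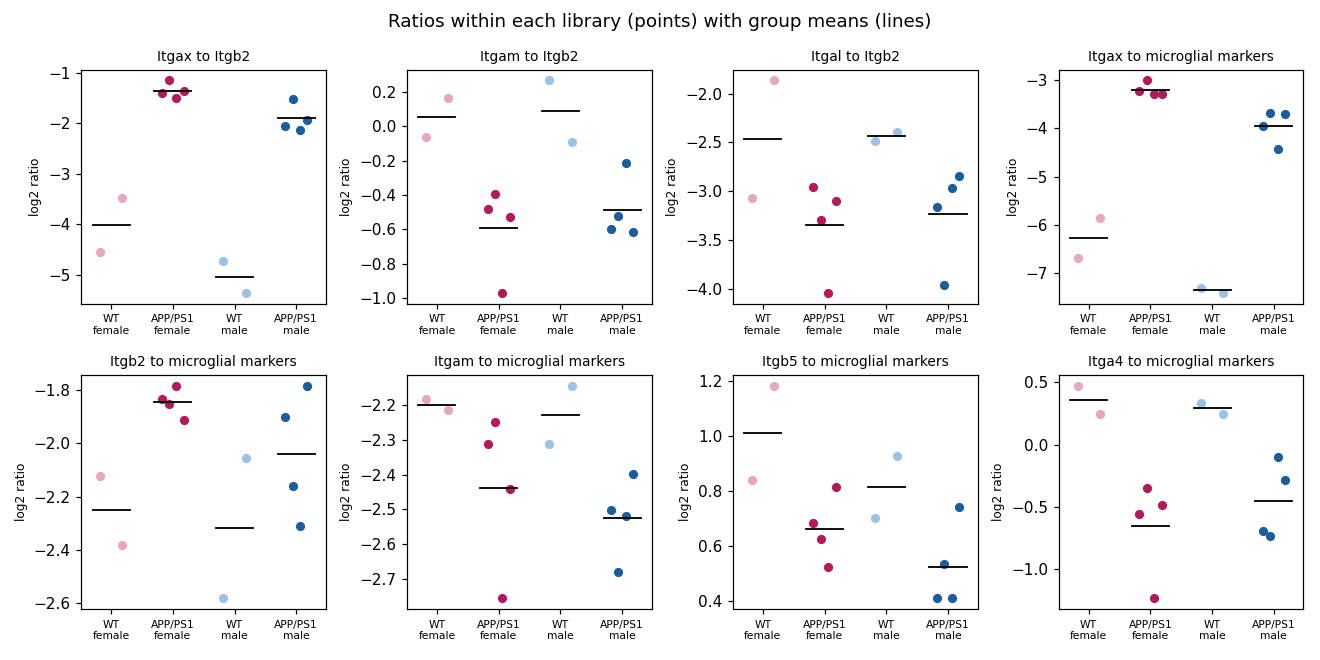
Log2 ratios (y axis) of member subunits to Itgb2 and to the mean of 17 microglial identity markers in each library (points, with group means as lines), by genotype and sex. Itgax rises against both references, while the APP/PS1 means of Itgam and Itga4 lie below the WT means. Against the markers, which rose by 0.74, and against Itgb2, which rose as well, an unchanged gene lies lower too.

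Microglial identity markers were themselves higher in APP/PS1. Of 17 such genes tested, 11 were called higher and 0 lower with the sexes averaged, with a median log2 fold change of 0.80 against 0.011 over all genes, and 0 were called by edgeR within either sex, where 16 in females and 12 in males had an unadjusted p under 0.05. Over all genes tested, 1.75% were called higher and 0.161% lower with the sexes averaged. The shares were 0.78% and 0.0387% in females and 0.161% and 0% in males. Ctss (cathepsin S) rose by a log2 fold change of 1.05 and Csf1r, the receptor that keeps microglia alive, by 0.58, with edgeR adjusted p of 0.0741 and 0.0927 for the sexes averaged. The summed level of the 17 markers ran from 832 to 1384 normalized CPM in APP/PS1 and from 546 to 735 in WT. Itgb2 and Itgam thus moved beside a marker set that moved too, and its part in their rise was not tested.

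The mean log2 CPM of these 17 markers was 0.74 higher in APP/PS1, so a gene that did not change comes out lower by about that amount when set against it. Against this mean, Itgax was higher by 3.23 (exact permutation p = 0.0044), and its ratio did not overlap between groups. Itgb2 was higher by 0.34 (exact permutation p = 0.022) and Itgam lower by 0.27 (exact permutation p = 0.013), both with overlap. The rise of the markers alone moves the Itgam ratio down, so its p speaks only to a smaller rise than theirs, not to a fall of Itgam. Itgb1, Itgav and Itga4, which were not called, moved further down, as given below. Without the 3 libraries rich in choroid plexus transcripts, Itgax still passed (3.40, exact permutation p = 0.025, the smallest those libraries allow), while Itgb2 (0.30, p = 0.075) and Itgam (-0.27, p = 0.10) did not. The Itgb2 ratio also missed 0.05 in the exact permutation test without WT female 2 (p = 0.053) or WT male 1 (0.21, p = 0.19), and that of Itgam without WT female 1 or WT female 2 (p = 0.080 each) or WT male 2 (p = 0.053). The other members are given without a test, since the rise of the markers alone moves their ratios: the difference was -0.057 for Itgb3, -0.32 for Itgb5, -0.49 for Itga6, -0.50 for Itgal, -0.62 for Itgb1, -0.74 for Itgav and -0.88 for Itga4.

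Markers of other cells that carry CD11c or beta2 integrins were mostly under the filter. Of 7 dendritic cell markers, Flt3 was at 8.07 normalized CPM in APP/PS1 and 8.75 in WT and Zbtb46 at 7.98 and 8.90, with neither called. Xcr1, Clec9a, Cd209a, Ccr7 and Clec10a were under 1 CPM in all 12 libraries, and the summed level of the 7 ran from 15.3 to 18.4 in APP/PS1 and from 16.2 to 20.8 in WT. None of 13 monocyte and neutrophil markers passed the filter; their sums were 0.38 to 2.74 in APP/PS1 and 0.34 to 10.1 in WT, the last in WT male 2. Of 19 lymphocyte markers 18 were under 1 CPM in all libraries. The summed level of all 19 was 2.91 to 4.37 in APP/PS1 and 2.37 to 2.84 in WT, higher in every APP/PS1 library though by little at the edge. That sum includes Lck, the 1 marker tested, with means of 1.40 normalized CPM in APP/PS1 and 1.38 in WT. The part of these cells in the Itgal and Itgb2 values was not tested. Border macrophage markers summed to 18.8 to 29.8 in APP/PS1 and 22.6 to 32.0 in WT, with 0 of the 4 tested called.

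Of 18 genes known from microglia at amyloid plaques, a list on which Itgax is not counted here, 10 were called higher and 0 lower. Over all genes tested 1.75% were called higher and 0.161% lower. The median log2 fold change of the list was 0.36, against 0.011 over all genes tested. Of these 18, the most abundant were Apoe, Ctsb and Timp2, with log2 fold changes of 0.24, 0.20 and -0.13 (edgeR adjusted p = 0.315, 0.119 and 0.607). They were named for their level in the whole tissue, and none of them is among the 10 called. Timp2 had the lowest log2 fold change of the list, 17 of the 18 genes were positive, and the highest value was 7.10. Of 8 astrocyte markers 1 was called, Gfap, at a log2 fold change of 1.05 (edgeR adjusted p = 0.0135), and of 9 oligodendrocyte lineage markers none was. Choroid plexus transcripts set 3 libraries apart (WT female 2, APP/PS1 male 2 and female 1 of the APP/PS1 group), with Ttr at 3526 to 6318 CPM against 2.68 to 18.2 in the others. The summed choroid markers ran from 159 to 10231 in APP/PS1 and from 139 to 6057 in WT, with 0 of 12 called. Without those 3 libraries Itgax (log2 fold change 4.20, edgeR adjusted p = 1.4e-04) and Itgb2 (0.97, adjusted p = 0.0327) were called, and Itgam (0.39, adjusted p = 0.205) and Itga6 (0.27, adjusted p = 0.132) were not.

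Of 17 other integrin subunits listed, 12 passed the filter and none of them was called by edgeR, with log2 fold changes from -0.062 to 0.38 and a median of 0.042, and 1 had an unadjusted p under 0.05. Itgad, Itgae, Itgb2l, Itgb6 and Itgb7 were under the filter; fitted without it, Itgad alone of these had an edgeR adjusted p under 0.1 (-1.19, SE 0.31, adjusted p = 0.0670).

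The ligands of integrins also moved little as a list. Of 32 ligand genes 28 were tested, 1 was called higher and 0 lower, and the median log2 fold change was -0.0070. Over all tested genes 1.75% were called higher and 0.161% lower. The gene called was Tgfb1, whose latent form is held by a peptide that binds the Itgav integrins. It was at 5.84 to 9.39 normalized CPM in APP/PS1 and 4.13 to 4.65 in WT, a log2 fold change of 0.72 (SE 0.15, edgeR adjusted p = 0.0333). Its groups did not overlap, but the gene was named because it was called. All APP/PS1 libraries lay above all WT libraries for 1.37% of the genes tested.

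Of 36 adaptor and signalling genes, 34 were tested, 2 were called higher and 0 lower, with a median of 0.096. The shares called over all tested genes were 1.75% higher and 0.161% lower. Fermt3, kindlin-3, which activates integrins in blood cells, was at 4.59 to 6.42 normalized CPM in APP/PS1 and 2.23 to 4.32 in WT, a log2 fold change of 0.70 (SE 0.15, edgeR adjusted p = 0.0415). Vav1, an exchange factor of blood cells that acts downstream of integrins, was at 4.55 to 7.13 against 2.94 to 4.37, a log2 fold change of 0.68 (SE 0.16, edgeR adjusted p = 0.0741). Neither gene overlapped between the groups, as was so in the upward direction for 1.37% of the genes tested. Both were named because they were called, so the lack of overlap adds no separate evidence. Fermt3 shares 89 exonic bases with Trpt1 on the opposite strand.

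**Figure D5:**
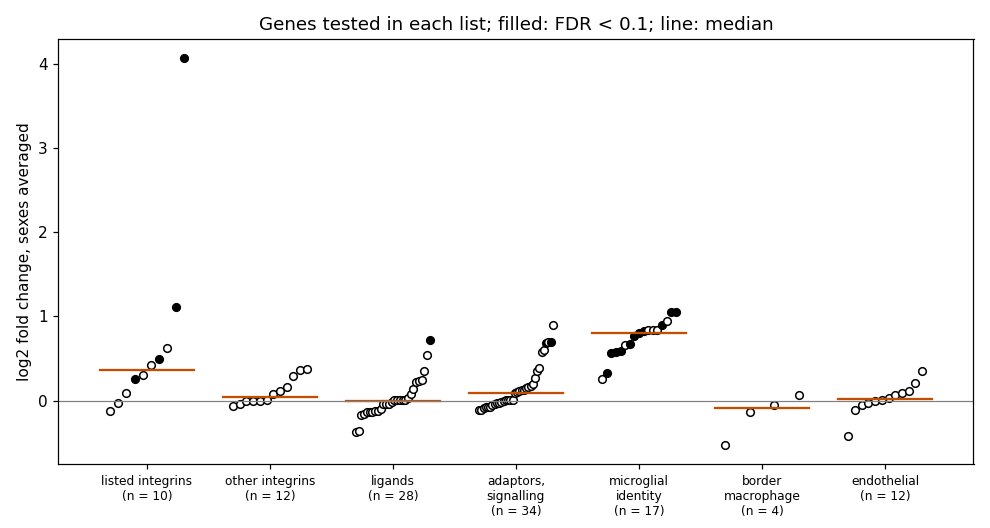
Log2 fold changes with the sexes averaged (y axis) of the genes tested in 7 lists (x axis), with genes called at an adjusted p under 0.1 filled and the median of each list as a line. The lists are the 10 members, other integrin subunits, ligands, adaptors and markers of microglial identity, border macrophages and endothelium; the plaque-associated list, which reaches 7.10, is not plotted. Itgax stands at 4.07, and the median of the microglial identity markers is 0.80.

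Across the 8 APP/PS1 libraries, the 5 tested genes whose log2 CPM followed Itgax most closely were Gfap, the astrocyte filament gene (Pearson r 0.965, Spearman rho 0.976), Fam166b (0.956 and 0.905), 2810029C07Rik (0.952 and 0.857), Trim30a (0.941 and 0.929) and Kif20b (0.939 and 0.881). They were picked as the highest of 15520 genes, and since APP/PS1 females were above males in Itgax the values hold that sex difference too. Fam166b and Kif20b were near the filter, with means of 0.958 and 0.964 normalized CPM in APP/PS1. Against WT, the log2 fold change was negative for Fam166b (-0.64) and 2810029C07Rik (-0.23), neither called, and positive for Gfap, Trim30a and Kif20b. Of the other members, the highest Pearson r with Itgax was that of Itgb5 (0.830; rho 0.738), followed by Itgb2 (0.790; rho 0.476) and Itgam (0.716; rho 0.619), whereas by rho Itgb3 (0.667) came after Itgb5. Itga4 ran against Itgax (r -0.676; rho -0.643). These are descriptions over 8 libraries that share scaling factors.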

How the data were processed

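Poly-A RNA was sequenced from directional libraries. The authors trimmed the reads (Trimmomatic), aligned them to GRCm38 (STAR) and deposited raw counts per Ensembl gene (HTSeq); tool versions, strand and multimapping settings are not given in the sources used here. Symbols and coordinates came from GENCODE M21 (55394 of 55573 genes matched).

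In edgeR 4.0.16 (R 4.3.3), genes with at least 1 CPM in at least 3 of 12 libraries were kept (15521), with upper-quartile factors, and 2 RUVg factors of unwanted variation, estimated from the genes left after removing the 5000 with the smallest p of a first fit. One robust quasi-likelihood model held all 4 groups. Contrasts were adjusted by Benjamini-Hochberg over all genes tested and called under 0.1. Ratios were tested by exact permutation within sex. The same model, tested on simulated data with 200 of 15521 genes changed and the sexes averaged, recovered 181 (86 at a log2 change of 1 and 95 at 2, of 100 each), with 11.3% of its calls false. The simulated counts held no shared unwanted variation such as the choroid plexus transcripts. They also held no change smaller than a log2 of 1, so these figures do not cover the smaller changes of Itgam and Itga6.

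The members, lists and tests were chosen with earlier results of these data known. All members were named; of other subunits, ligands and adaptors, those called; of marker lists, up to 3 of the highest mean (1 such gene is not reported here); and the 5 genes most like Itgax. Counting error in libraries of 36714316 to 50643565 counts is small beside the spread between animals except for genes with few counts, such as Itgal. Pairs of libraries within groups differed beyond sampling noise (chi-square per degree of freedom 11.6 to 52.0 over 14 pairs), so each counted as 1 replicate. Alternatives were TMM factors, the likelihood ratio test, DESeq2 1.42.0, other filters, fewer RUV factors, a replicate block, each sex alone, an adjusted p under 0.05, and leaving out libraries.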

Additional observations from a re-analysis of the deposited data

How the results depend on the processing

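The call of Itgax was kept with the sexes averaged in 21 of 21 alternatives, and in females and in males in 22 of 22 each. With the sexes averaged, 4 members were called; at an adjusted p under 0.05 or without the choroid plexus-rich libraries 2 were, and leaving out 1 animal gave 1 (without WT female 2) to 5. Females, with 1 member called, gave 5 by the likelihood ratio test and in DESeq2, 2 with no RUV factors, with 1 RUV factor or fitted alone, and 1 to 4 on leaving out 1 animal (4 without APP/PS1 male 1). Males, with 1, gave 2 in DESeq2. Over all 15521 genes, 297 were called with the sexes averaged, 203 at 0.05 and 198 without RUV factors; females gave 127, against 320 by the likelihood ratio test and 311 in DESeq2, and males 25, against 134 and 131. Leaving out a WT animal leaves 1 WT of that sex, assumed to vary as the other animals do.

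The log2 ratio of Itgam to Itgb2 was -0.57 without the choroid plexus-rich libraries (exact permutation p = 0.050) and that of Itgal to Itgb2 was -0.48 (p = 0.13), the latter from -1.143 to -0.54 on leaving out 1 animal. The log2 fold change of Itgav turned positive with the sexes averaged (0.012 with no or 1 RUV factor, 0.026 without the choroid plexus-rich libraries), in females (0.050, 0.048, 0.051 fitted alone and 0.030) and in males (0.021 without those libraries). On leaving out 1 animal, signs changed for Itgav averaged (-0.084 to 0.030) and in females (-0.15 to 0.061), Itga4 in females (-0.33 to 0.078), Itgal in males (-0.17 to 0.48), Itgb1 in males (-0.11 to 0.17) and the ratio of Itgb3 to the markers (-0.23 to 0.12). None of these was called, and the cause was not tested.

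Replicate numbers were not treated as pairs: deviations of same-numbered libraries correlated from -0.64 to 0.69, over 0.1 in 6 of 14 pairs. The 2 WT animals of a sex have mirrored deviations, and the value of 0.69 joins 2 choroid plexus-rich libraries. This check therefore cannot exclude a pairing by number. With the replicate block 3 members were called with the sexes averaged (Itgb2 adjusted p = 0.320), 1 in females and 1 in males. Depth limits Itgal, Itgad and the WT level of Itgax.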

Other observations

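Itgad, the fourth alpha chain that pairs with Itgb2 and the gene just after Itgax on chromosome 7, moved against its neighbour. It was under the filter, at 15, 23, 18 and 37 counts in APP/PS1 females, 8, 6, 11 and 13 in APP/PS1 males, 24 and 38 in WT females and 20 and 60 in WT males, and it was chosen for description after its values were seen. All 4 APP/PS1 males lay below all 4 WT libraries, and the APP/PS1 females overlapped them. Fitted with no filter on low counts, over 33621 genes, its log2 fold change with the sexes averaged was -1.19 (SE 0.31, edgeR adjusted p = 0.0670), and it was -0.55 in females (SE 0.45) and -1.83 in males (SE 0.45, edgeR adjusted p = 0.134). The difference between the sexes was not called (edgeR unadjusted p = 0.059). Itgad and Itgax transcripts share 384 stretches of 50 bases, 8.43% of those of Itgad and 8.02% of those of Itgax, so a part of the reads of either cannot be assigned to 1 gene by sequence. No such stretch was shared by the other 9 members with another integrin gene.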
